A study of Mus musculus with 30 samples.

Results

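Resting mouse macrophages were described from the 7 libraries of vehicle-treated cells that had received no LPS (the 0 h libraries), chosen by their labels from the 30 RNA sequencing libraries of the series. The cells were bone marrow-derived macrophages of wild-type C57Bl/6 mice, grown in medium with M-CSF and 20% fetal bovine serum, fed on day 4 and used 6 days after plating. All 7 cultures received DMSO, the solvent control, for 2 h before collection. The 7 libraries carry the culture names r1, r2, D3, D4, D5, D6 and UKD, and each name also has a DMSO library after 1 h and after 2 h of LPS (labelled 100 ng/µL), 21 DMSO libraries in all; the libraries of MPH-treated cells were not used here. The labels do not say what the letters r, D and UKD stand for, nor whether the cultures came from separate animals. Each p-value therefore speaks only for these samples, and the spread it rests on may be technical.

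Macrophages are made from marrow precursors under M-CSF, which signals through the receptor Csf1r. The transcription factor PU.1 (Spi1) opens macrophage enhancers together with C/EBP factors, and the resulting cell is built for phagocytosis, with a large lysosome compartment, iron storage and many surface receptors for particles, microbial products and mediators. Before a microbial signal arrives most cytokine genes are kept low, while a weak tonic interferon signal keeps some antiviral genes on.

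The deposited levels were RPKM, reads per kilobase of transcript scaled to library depth, so levels of different genes are compared per length. Of 44401 transcript lines, 24761 gene symbols were kept by taking for each the line with the highest mean. The depth recovered from the smallest value steps ranged from 18.6 M to 57.9 M reads (M, mega) over the 7 libraries, with a median of 44.7 M. No value in the table was 0, so the lowest values stand for a floor of about 1 read and are upper limits. Pairs of 0 h libraries correlated across genes between 0.857 (r1 and UKD) and 0.981 (r1 and r2), and no pair was a copy of another.

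Resting macrophages had 8855 genes at 1 RPKM or more in all 7 cultures, and 14452 genes below 1 RPKM in all 7. A single library had between 9464 and 9734 genes at 1 RPKM or more. The mean over the 7 was 5 RPKM or more for 6032 genes, 100 or more for 271 and 1000 or more for 11. The most abundant gene alone held 3.12% ± 0.673 of the summed RPKM (SD, n = 7), the top 20 held 19.2% ± 1.43, the top 100 held 31.5% and the top 1000 held 62.8%. Of the genes in the top 20 of a library, 13 were in the top 20 of every library.

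Iron storage and lysosomal genes filled the first ranks. Ferritin heavy chain (Fth1), which oxidises and stores iron, ranked first by mean, with 4597 RPKM at the lowest (D4), 6386 at the median and 8692 at the highest (D3). It was the top gene in 6 libraries, and lysozyme 2 (Lyz2), an enzyme that digests bacterial cell walls, was the top gene in D4 with 5397 RPKM. Lyz2 had a median of 5107 RPKM and a range of 2959 to 5714. Ferritin light chain (Ftl1) was at 3897 RPKM ± 1280 (SD, n = 7).

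The lysosome was represented by the aspartic protease Ctsd at 4498 RPKM ± 816 (SD, n = 7), the sphingolipid activator precursor Psap at 2559 ± 593, and the cysteine proteases Ctsb at 2304 ± 353 and Ctss at 1472 ± 334. Granulin (Grn), which reaches lysosomes as a precursor, was at 637 RPKM ± 87.8, and the lysosomal glycoprotein Cd68 at 657 ± 133. The transmembrane glycoprotein Gpnmb had 2316 RPKM ± 417. Cytoskeletal genes were next: the actin-binding peptide gene Tmsb4x at 2464 RPKM ± 496, vimentin (Vim) at 1003 ± 430 and Actb at 884 ± 195.

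The galectin gene Lgals3 had 1656 RPKM ± 821 and Lgals1 had 978 ± 275. The calcium-binding S100a4 had 982 RPKM ± 193, and osteopontin (Spp1), a secreted phosphoprotein, had 957 ± 134. The signalling adaptors Tyrobp, at 792 RPKM ± 106, and Fcer1g, at 643 ± 198, pair with activating receptors. Beta-2 microglobulin (B2m), the light chain of MHC class I, had 693 RPKM ± 187. Within these 20 the SD of log2(RPKM + 0.5) ran from 0.19 (Tyrobp) to 0.71 (Lgals3). Lgals3 was highest in UKD (3007 RPKM) and lowest in D4 (885 RPKM).

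**Figure D1:**
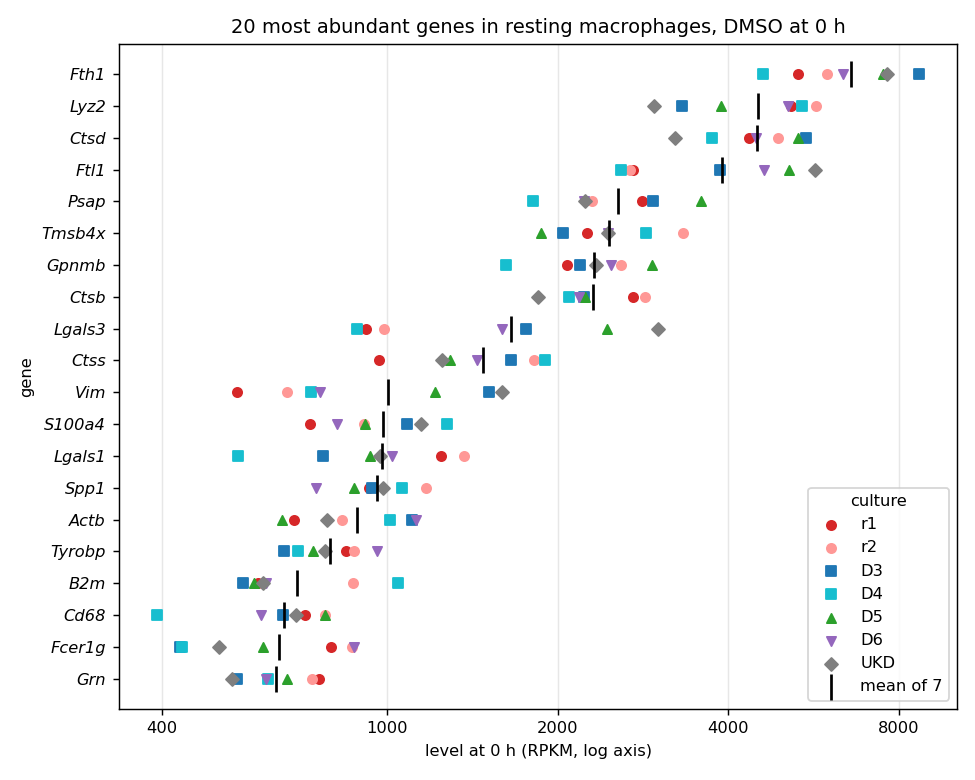
The 20 genes with the highest mean level in resting macrophages, from the top down. The x axis is the level in RPKM on a log scale, each marker is 1 of the 7 DMSO 0 h libraries, and Fth1 spans 4597 to 8692 RPKM.

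These ranks depend on how transcript lines and near-identical copies were counted. When all lines of a symbol were summed, Psap, with 6 lines, came first at 14948 RPKM and Fth1, with 2, came to 10690. Fth1, Ftl1, Tmsb4x and Rpl36 have processed pseudogenes, and how reads with several matches were placed is not given in the sources used here. Gapdh, a glycolytic gene with many pseudogenes, was listed at only 18.0 RPKM (rank 2157), so its level is uncertain.

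Lineage transcription factors were present with few exceptions: 20 of 22 were at 1 RPKM or more in all 7 cultures. The inhibitor of DNA binding Id2 led at 116 RPKM ± 28.3 (SD, n = 7), followed by Spi1 (PU.1), with 58.4 RPKM at the lowest (D3), 76.6 at the median and 119 at the highest (UKD). Below them stood Irf5 at 40.7 RPKM, Klf6 at 26.8, Cebpa at 23.9, Bhlhe40 at 20.6, Irf8 at 19.6, Zeb2 at 17.6 and Maf at 15.6. Irf5 and Irf8 are interferon regulatory factors, and Maf is associated with macrophage differentiation.

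A lower tier held Cebpb at 12.6 RPKM, Fli1 at 12, the lipid-sensing nuclear receptors Pparg at 9.08 and Nr1h3 at 8.24, Tfec at 7.24, Klf2 at 4.40, Mef2c at 4.03, Klf4 at 3.79, Runx1 at 3.74, Mitf at 3.34 and Cebpd at 2.85. Egr2, a zinc finger factor that many signals induce, was at 0.391 RPKM. The median SD on the log2 scale was 0.37 over the 15 factors with a mean of 5 RPKM or more, and Cebpb and Cebpd stood above 1. Cebpb ran from 3.46 RPKM (r2) to 27.7 (UKD) with an SD of 1.12 on the log2 scale, and Cebpd from 0.466 (D3) to 6.92 (D6) with an SD of 1.17. Cebpb has a transcript GC content of 67.2%, and deviations in level were related to GC content in these cultures (given below for all genes).

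Macrophage identity genes were at 1 RPKM or more in all 7 cultures for 19 of 22, and their summed level was 8904 RPKM at the lowest (D3), 10905 at the median and 12390 at the highest (D6). Csf1r, the M-CSF receptor, had 185 RPKM at the lowest (D5), 235 at the median and 381 at the highest (r1). Mpeg1, a pore-forming protein of phagosomes, was at 346 RPKM ± 84.1, and Adgre1 (F4/80) at 142 ± 58.9. Itgam (CD11b) had 88.2 RPKM ± 43.4.

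Genes of the tissue environment were uneven between cultures. The apolipoprotein gene Apoe had 1236 RPKM in D6, against 141 to 396 RPKM in the other 6 cultures. The complement chains C1qb, C1qc and C1qa averaged 217, 129 and 27.0 RPKM, and all 3 were lowest in D3 (56.3, 34.6 and 5.15 RPKM) and highest in D4 (335, 217 and 48.6 RPKM). Siglec1, a sialic acid-binding receptor, ran from 2.28 RPKM (D3) to 25.9 (r2), and Cx3cr1, the fractalkine receptor, from 1.44 (r1) to 23.2 (D4). Cd163 at 0.342 RPKM and Timd4 at 0.0332, both markers of some tissue-resident macrophages, were below 1 RPKM in all 7 cultures.

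Markers of other marrow cells were low. The summed level was 0.689 to 1.60 RPKM for the 9 B cell markers, 0.373 to 1.99 for the 11 T and NK cell markers, and 13.2 to 57.0 for the 15 neutrophil markers, of which S100a8 at 8.20 RPKM and S100a9 at 11 made most. Pf4 carried the erythroid and platelet list (33.1 RPKM) and Bst2, itself an interferon-stimulated gene, the dendritic cell list (105 RPKM); Pf4 is also known from macrophages. D6 was the highest culture for the mast cell gene Kit, at 3.96 RPKM against 0.593 to 1.49 in the others, and for the endothelial gene Kdr, at 10.2 RPKM against 3.08 to 5.22. In all 7 cultures 8 of the 9 mast cell and basophil markers were below 1 RPKM. So were 14 of the 16 stromal and endothelial markers. In a bulk library, fewer cells of a type and less RNA per cell cannot be told apart.

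**Figure D2:**
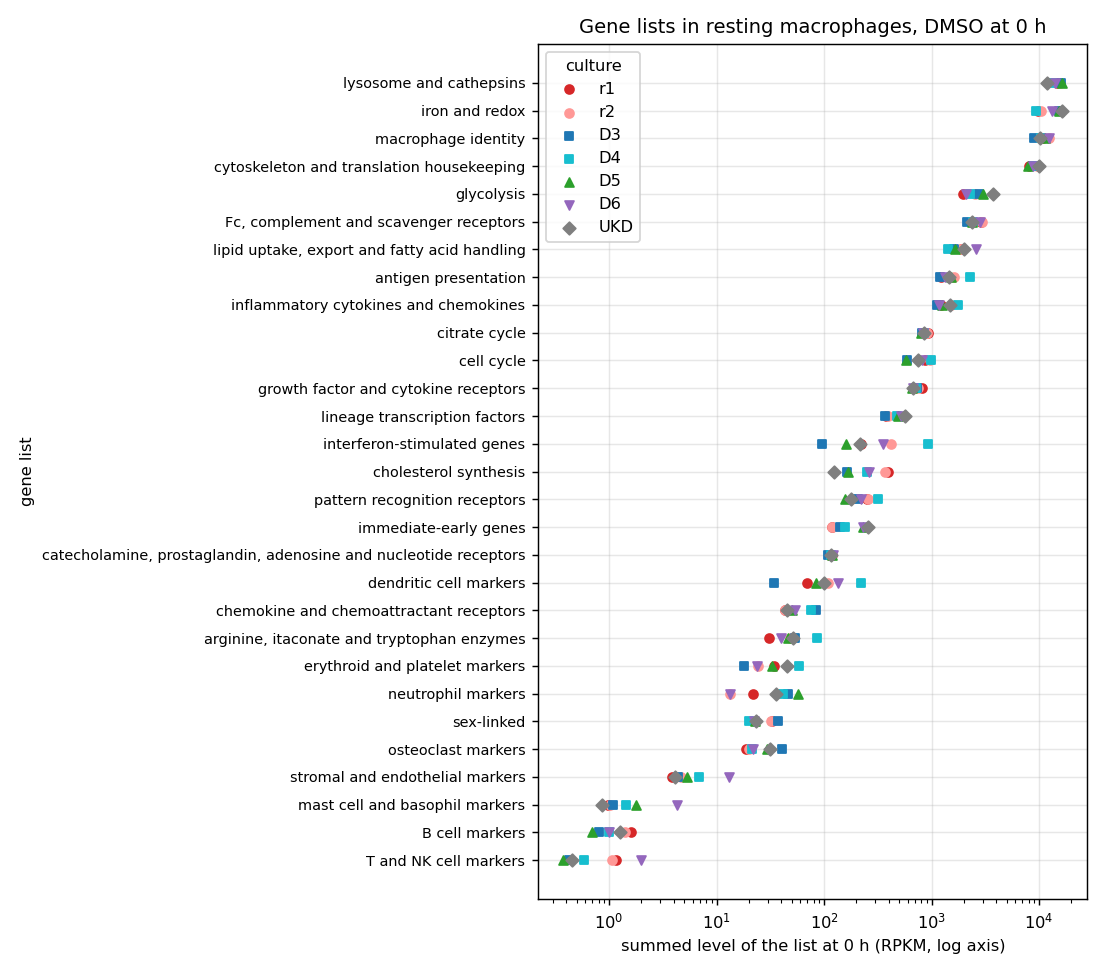
Summed level of each gene list in resting macrophages. The x axis is the sum of RPKM over the members on a log scale, and each marker is 1 of the 7 DMSO 0 h libraries; the interferon-stimulated list spans 94.8 to 936 RPKM, while the citrate cycle list spans 795 to 919 RPKM.

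Growth and survival receptors were led after Csf1r by Il10rb, a shared chain of interleukin-10 family receptors, at 75 RPKM ± 9.25 (SD, n = 7), and by the TNF receptor Tnfrsf1b at 47.8 ± 13.0. The type I interferon receptor chains were among the steadiest receptors, with Ifnar2 at 30.01 RPKM ± 2.31 and Ifnar1 at 12.1 ± 0.868. The GM-CSF receptor alpha chain Csf2ra was not: it had 13.3 RPKM at the lowest (r1), 30.4 at the median and 83.5 at the highest (D5). Csf2rb, whose sequence is close to that of Csf2rb2, had 57.8 RPKM in D3, against 16.4 to 26.4 RPKM in the other 6.

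Receptors for microbial products were modest. Tlr13, a sensor of bacterial ribosomal RNA, was at 46.0 RPKM ± 7.57, Tlr7 at 18.4 ± 9.06 and Tlr2 at 16.4 ± 7.63. The LPS receptor Tlr4 had 7.29 RPKM ± 2.15, its partner Ly96 (MD-2) 6.87 ± 1.53, and the LPS co-receptor Cd14 39.6 ± 5.95. Phagocytic receptors were higher, with Trem2 at 289 RPKM ± 57.3, the integrin chain Itgb2 at 196 ± 35.8, the scavenger receptor Msr1 at 98.9 ± 35.3 and the Fc receptor Fcgr3 at 96.7 ± 35.4. The mannose receptor Mrc1 averaged 36.3 RPKM but ran from 4.52 (D3) to 118 (r1).

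Receptors for catecholamines, prostanoids, adenosine and nucleotides were mostly low, with 10 of 28 at 1 RPKM or more in all 7 cultures and 11 below 1 RPKM in all 7. Of the catecholamine receptors named here, Adra1a had 1.71 RPKM ± 0.543 (SD, n = 7), while Adrb1 was at 0.128, Adra2a at 0.0111, Adrb3 at 0.00982, Drd1 at 0.0275 and Drd5 at 0.0091 RPKM. The last 4 are near the floor of a few reads.

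Among prostanoid receptors, the prostacyclin receptor Ptgir had 2.94 RPKM ± 1.37, Ptger1 2.83 ± 2.12, Ptger4 1.96 ± 0.941, Ptger2 1.18 ± 0.423 and Ptger3 0.467 ± 0.207. In this order neighbours overlapped over the 7 cultures, except Ptger2 (0.863 to 2.03 RPKM) and Ptger3 (0.250 to 0.850). Adora2b was at 0.988 RPKM ± 0.235 and the other adenosine receptors were lower, with Adora3 at 0.189, Adora2a at 0.0413 and Adora1 at 0.006 RPKM. The highest members were the nucleotide receptors P2ry6 at 25.1 RPKM ± 4.61 and P2rx4 at 24.3 ± 4.15 and the lipid receptor S1pr2 at 19.4 ± 3.73.

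The genes of the citrate cycle varied little between cultures, and those of glycolysis more. All 21 citrate cycle genes were at 1 RPKM or more in all 7 cultures, with a summed level of 795 to 919 RPKM and a median SD of 0.19 on the log2 scale. The succinate dehydrogenase subunit Sdhc was at 62.3 RPKM ± 3.62 (SD, n = 7), and Suclg1, of succinyl-CoA ligase, at 29.99 ± 1.68. Idh1, the cytosolic isocitrate dehydrogenase, varied more, from 20.9 RPKM (UKD) to 79.9 (r1). Other mitochondrial genes varied too: Uqcrq, a subunit of respiratory complex III, had 4.46 RPKM in D3 and 41.3 in UKD, with an SD of 1.45 on the log2 scale.

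The glycolysis list summed to 1971 RPKM at the lowest (r1), 2540 at the median and 3699 at the highest (UKD). Its leading members were Pkm at 636 RPKM ± 131, Aldoa at 550 ± 159, Ldha at 383 ± 110 and Eno1 at 248 ± 93.2. UKD was the highest culture for all 4 of these and for the glucose transporter Slc2a1 (41.9 RPKM, against 10.9 to 33.1 in the others). Iron and redox genes summed to 9306 to 16525 RPKM, with the peroxiredoxin Prdx1 at 547 RPKM ± 212 and haem oxygenase Hmox1 at 262 ± 101. Slc40a1, the iron exporter ferroportin, ran from 4.01 RPKM (D3) to 52.6 (r1).

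Genes of inducible macrophage metabolism were low at rest. Nos2 was at 0.0627 RPKM and Arg1 at 0.0608 RPKM, so neither of these arginine-using enzymes reached 1 RPKM in any culture. Acod1, which makes itaconate, had 1.32 RPKM at the lowest (r1), 2.62 at the median and 31.9 at the highest (D4). Among cytokine genes, Tnf was at 11.4 RPKM ± 4.90, the chemokines Ccl3 and Ccl4 at 26.6 ± 12.5 and 22.9 ± 15.7, and Il1b at 0.480 ± 0.587, from 0.0385 RPKM (UKD) to 1.67 (D6).

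Genes of antigen presentation were dominated by class I. The class I heavy chains H2-D1 and H2-K1 had 406 RPKM ± 78.3 and 203 ± 73.7 (SD, n = 7), while the class II invariant chain Cd74 had 38.5 ± 19.1 and the class II chain H2-Aa 11 ± 6.1. B2m, H2-D1 and H2-K1 were each highest in D4, at 1044, 521 and 360 RPKM. Cd74 was highest in D5 (68.2 RPKM) and lowest in D6 (14.4 RPKM), and H2-Aa likewise, at 19.8 and 3.62 RPKM. B2m and H2-D1 were lowest in D3 (556 and 326 RPKM) and H2-K1 in r1 (142 RPKM).

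Genes of lipid handling were abundant. Lipa, the lysosomal acid lipase, had 343 RPKM ± 52.8, Plin2, which coats lipid droplets, 246 ± 95.2, and the secreted lipase Lpl 192 ± 75.2. The fatty acid carrier Fabp5 had 139 RPKM ± 53.6 and the scavenger receptor Cd36 82.7 ± 32.6. Plin2 and Lpl were both highest in UKD (412 and 303 RPKM).

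Transcripts of the cell cycle were present throughout. All 32 cell cycle genes were at 1 RPKM or more in all 7 cultures, with a summed level of 577 RPKM at the lowest (D5), 814 at the median and 984 at the highest (D4). The replication clamp Pcna had 121 RPKM ± 25.8, the topoisomerase Top2a 51.9 ± 14.99 and the proliferation marker Mki67 36.3 ± 10.4. Immediate-early genes were lower and less even: Jun had 5.81 RPKM at the lowest (D3), 12.9 at the median and 36.2 at the highest (D6), and Junb 1.6 at the lowest (r1), 12.8 at the median and 28.6 at the highest (UKD).

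Variation between the 7 resting cultures was measured by the SD of log2(RPKM + 0.5) among the 6032 genes with a mean of 5 RPKM or more. The median SD was 0.26, with quartiles of 0.19 and 0.37. An SD above 1 was reached by 114 genes (1.89%), and an SD under 0.1 by 172 (2.85%). The mean includes every culture, so a gene high in 1 culture can pass the limit on the mean through that culture alone. The last gene inside the limit of 1 was Gas7 (SD 1.00) and the first outside was Ccl2 (SD 0.99).

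The 15 most variable genes, in order, were Scand1 (SD 2.82), Serpinb9b (2.22), Saa3 (2.19), Ccl5 (2.17), Gdf15 (2.09), Crlf2 (1.98), Lyz1 (1.92), Eif2s3y (1.90), Cav1 (1.86), Hpgd (1.81), Mrc1 (1.78), Rnaseh2c (1.75), Rpl36 (1.73), Irf7 (1.71) and Jund (1.71). Scand1, a small SCAN-domain protein gene, had 46.4, 38.4 and 22.3 RPKM in UKD, D5 and D6, 7.59 in D4, and 0.182 to 0.294 in D3, r1 and r2. Gdf15, a stress-induced TGF-beta family member, ran from 0.987 RPKM (D3) to 52.1 (UKD), and Rpl36, a ribosomal protein gene, from 11.6 (r1) to 215 (UKD).

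Serpinb9b, a serine protease inhibitor, had 26.1 RPKM in D3 and 24.8 in UKD, but 0.311 in r1 and 0.329 in D6. Cav1, the caveolae protein, had 22.2 RPKM in D3 and 0.145 in r1. Hpgd, which degrades prostaglandins, had 22.4 RPKM in r1 and 0.528 in UKD. Of the 114 variable genes, 45 were highest in UKD, 26 in D4, 17 in r1, 10 in D3, 9 in D5, 5 in D6 and 2 in r2. D3 was the lowest culture for 41 of them and r1 for 36.

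Among the 10 least variable genes were Ints11 (SD 0.038), Tmem248, Mmgt2, Polr2g, Itprid2, Utp3, Fnta, Fam98a and Abcf2 (SD 0.056). Ints11, the endonuclease of the Integrator complex, stayed between 11.7 and 12.4 RPKM, and Polr2g, a subunit of RNA polymerase II, between 30.7 and 33.9. None of the 10 belongs to the cytoskeleton and translation list often used for scaling, whose 26 members had a median SD of 0.27.

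**Figure D3:**
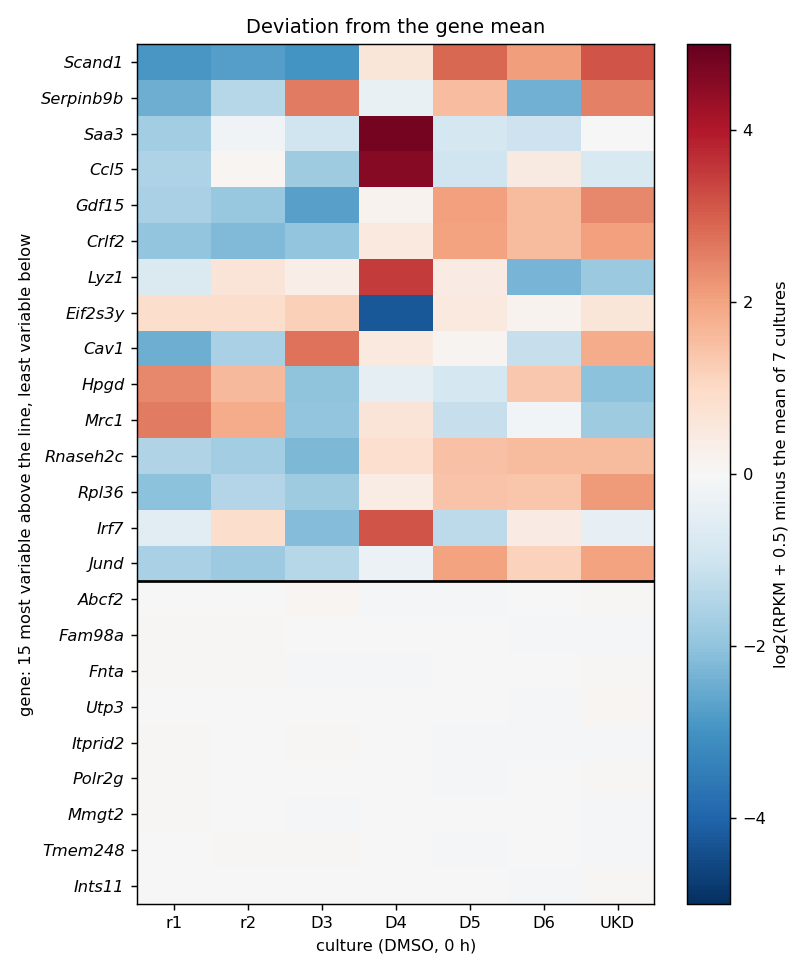
Deviation of each gene from its mean over 7 resting cultures, as a colour scale of log2(RPKM + 0.5). Rows are the 15 most variable genes (above the line) and 9 of the 10 least variable (below it), columns are cultures; Saa3, Ccl5, Lyz1 and Irf7 are highest in D4, and the rows below the line are nearly white.

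The same culture names were then compared in the 14 DMSO libraries taken 1 h and 2 h after LPS, which had no part in ranking genes at 0 h. A limma F test over the 7 cultures, with LPS time as a term, called 74.2% of all 9863 genes tested (adjusted p below 0.05). The 1 h and 2 h libraries of a culture served as its 2 values. The p-value thus sets the cultures against the disagreement left between those 2 libraries, and not against a spread between independent cultures. In that sense most expressed genes differed between these cultures. Of the 114 variable genes 114 were called, of the 20 most abundant 20, and of the 10 least variable 1 (Itprid2, adjusted p = 0.0237). Scand1 had an adjusted p of 5.52e-09, Mrc1 of 5.43e-07, Saa3 of 0.00122 and Ccl5 of 0.0102. Without the 3 cultures whose 1 h library was shallow, 106 of 111 variable genes, 14 of the 20 most abundant and 0 of the 10 least variable were called, beside 53.3% of all 9485 genes tested there. Saa3 had an adjusted p of 0.0642 there and Itprid2 of 0.268, and Itprid2 had 0.0546 without r1. Lyz1, called with all cultures (adjusted p = 0.00229), had 0.178 without D4.

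Over the 21 DMSO libraries and the 6032 genes, culture held a median of 66.4% of a gene's sum of squares, LPS time 20.9% and the rest 8.41%. Culture held more than 50% for 69.2% of genes and LPS time for 19.0%. These shares are raw: there were more cultures than times, so culture takes a larger share even where nothing differs. The genes were chosen by their level at 0 h, which leaves out genes that are low at rest and rise with LPS, such as Il1b. The shares therefore do not rank culture against LPS.

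Deviations in level were related to the GC content of the transcripts, in a direction that differed between cultures. Genes were put in 10 equal groups by GC content. In the group with the highest GC content (above 57.9%), the median deviation from the gene mean was 0.46 on the log2 scale in UKD, 0.40 in D5 and 0.32 in D6, but −0.09 in D4, −0.26 in r1, −0.37 in r2 and −0.46 in D3. In the group with the lowest GC content the deviation was −0.26 in D5 and −0.22 in UKD, and 0.31 in D4. Across 5981 genes of a library, which are not independent, the correlation of deviation with GC content ran from −0.43 (D3) to 0.60 (D5). Every culture kept the sign of this correlation at 1 h and 2 h of LPS. It was 0.59 and 0.52 in D5, and −0.57 and −0.15 in D3. The comparison of cultures after LPS thus does not separate this deviation from other differences between cultures.

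**Figure D4:**
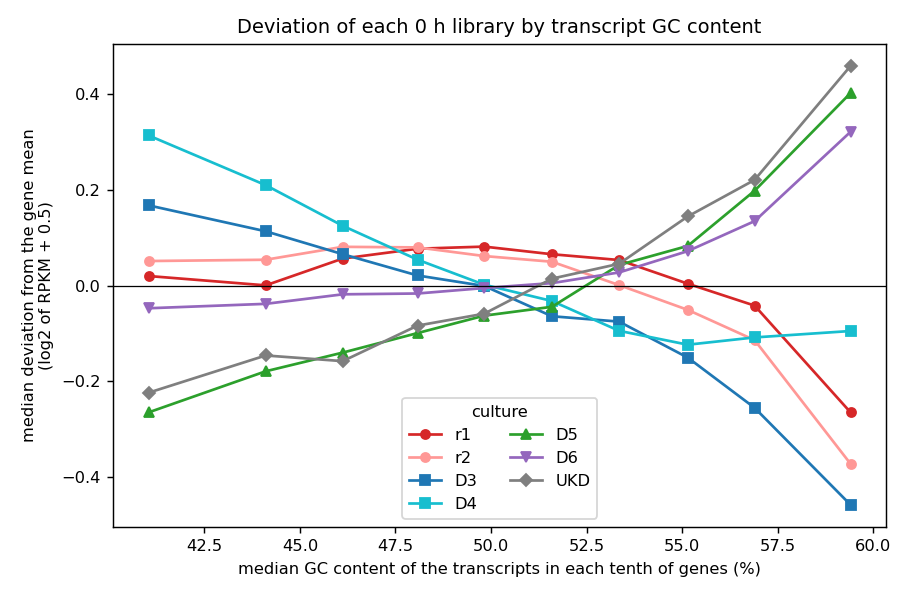
Median deviation from the gene mean, log2(RPKM + 0.5), against the median GC content of 10 equal groups of genes, for each of the 7 resting cultures. In the group richest in GC, UKD, D5 and D6 lie at 0.46, 0.40 and 0.32, and D3, r2 and r1 at −0.46, −0.37 and −0.26.

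The variable genes were richer in GC, with a median of 55.2% against 50.7% for all 6032 genes, and 38 of the 114 were in the top GC group while 6 were in the bottom one. Scand1 (68.4%), Jund (67.1%), Crlf2 (66.0%), Gdf15 (62.2%) and Rpl36 (60.8%) were among them. After each library was centred within GC groups, a step chosen after seeing the data, 84 genes had an SD above 1, of which 81 were among the first 114, and 12 of the 15 most variable were still among the top 15. The part of GC content in these differences was not tested further.

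By count, interferon-stimulated genes were the list with most variable members: 18 of 29 had an SD above 1. By share the sex-linked list was higher, with 4 of 5. All 18 had a mean of 1 RPKM or more. Among all genes with a mean of 5 RPKM or more, a stricter limit, 1.89% had an SD above 1. The median SD of the 14 members with a mean of 5 RPKM or more was 1.05, against 0.26 for all such genes. The means include D4, so members can pass these limits through D4 alone. The counts and the 1.05 are partly set by that. The summed level was 936 RPKM in D4, against 94.8 (D3) to 422 (r2) RPKM in the other 6 cultures, with a median of 221 over all 7. Without D4, 8 of the 29 had an SD above 1. D4 was the highest culture for each of the members named below.

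Isg15, an interferon-induced ubiquitin-like protein, had 43.7 RPKM in D4, against 0.890 to 12.5 in the other 6. Irf7, which amplifies the interferon response, had 66.2 RPKM in D4, against 1.20 to 13.6. Usp18, which removes Isg15 from proteins, had 26.7 RPKM in D4, against 0.916 to 12.1. D4, which is 1 library at 0 h, and the other cultures therefore did not overlap for these 3 genes. Over all 6032 genes with a mean of 5 RPKM or more, D4 was above the other 6 for 19.9%. For 0.381% of them it was at least 2 times the next highest.

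Other antiviral members followed: Rtp4 had 49.8 RPKM in D4 against 1.5 to 33.1, Oasl2 38.7 against 1.69 to 18.2, Rsad2 17.5 against 0.744 to 5.65, Ifit3 14.5 against 0.213 to 4.99, Ifit1 12.4 against 0.390 to 3.44, and Mx1 10.3 against 0.139 to 2.82. The second highest culture was r2 for Isg15, Irf7, Rtp4, Oasl2, Rsad2, Ifit1, Ifit3 and Mx1, while for Usp18 it was D6 (12.1 RPKM, against 9.07 in r2).

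The promoters of some of these genes are shown because they hold the core letters of the interferon-stimulated response element, to which interferon-activated factors bind. The motif searched was a pair of GAAA separated by any 2 bases, on both strands of the 250 bases before the transcript start, in RefSeq promoters of build GRCm38.p6 (the deposited levels were made on mm9, so no coordinates are carried between them). It was present in 12 of the 20 interferon-stimulated genes that had an entry (60.0%), in 3.04% of all 27025 promoters, and in 2.60% of those of genes with a mean of 5 RPKM or more. Each promoter is written 5′ to 3′ on the gene's strand, with the motif in capitals, overlapping matches joined.

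Isg15 (chr4:156200819-156201068, minus strand): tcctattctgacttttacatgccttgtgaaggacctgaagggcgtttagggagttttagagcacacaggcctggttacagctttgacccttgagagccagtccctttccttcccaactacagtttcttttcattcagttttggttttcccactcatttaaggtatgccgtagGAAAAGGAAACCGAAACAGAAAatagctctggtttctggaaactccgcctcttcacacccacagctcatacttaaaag
Ifit1 (chr19:34640639-34640888, plus strand): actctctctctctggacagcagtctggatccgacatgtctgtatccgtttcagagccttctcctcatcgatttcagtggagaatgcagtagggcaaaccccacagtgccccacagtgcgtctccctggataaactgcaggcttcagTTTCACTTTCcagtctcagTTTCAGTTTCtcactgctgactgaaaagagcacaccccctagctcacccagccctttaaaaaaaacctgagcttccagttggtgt
Rsad2 (chr12:26456453-26456702, minus strand): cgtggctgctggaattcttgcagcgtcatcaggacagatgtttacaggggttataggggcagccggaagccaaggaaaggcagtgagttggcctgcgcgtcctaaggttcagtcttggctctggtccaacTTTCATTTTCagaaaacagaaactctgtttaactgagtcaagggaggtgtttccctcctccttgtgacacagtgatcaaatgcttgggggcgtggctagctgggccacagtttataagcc
Cxcl10 (chr5:92348890-92349139, minus strand): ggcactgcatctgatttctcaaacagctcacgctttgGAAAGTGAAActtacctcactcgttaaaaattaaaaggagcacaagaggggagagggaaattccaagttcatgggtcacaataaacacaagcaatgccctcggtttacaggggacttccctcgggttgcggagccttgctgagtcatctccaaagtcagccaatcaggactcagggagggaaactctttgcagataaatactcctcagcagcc

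Isg15 held 3 matches, Ifit1 2 and Rsad2 and Cxcl10 1 each; in Ifit1 and Rsad2 the letters lie on the opposite strand. A match of letters is a description of the sequence and not a measured binding site.

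The acute phase gene Saa3 had 66.8 RPKM in D4, against 0.229 to 2.00 in the other 6, and the chemokine Ccl5 61.1 against 0.260 to 3.03. Both were below 5 RPKM in the other 6, so they entered the variable genes only through D4. Lyz1, which is near-identical to Lyz2 and may share reads with it, had 344 RPKM in D4 against 5.65 to 47.4. D4 also stood apart in sex-linked genes: Xist, the RNA that coats the inactive X chromosome, had 19.8 RPKM in D4 against at most 0.003 in the others, and the Y-linked Eif2s3y had 0.0185 against 10.6 to 21.8. The labels used here give no sex, and the part of this in the interferon values was not tested.

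D4 was highest in the summed interferon list at 0 and 1 h and second at 2 h, with 936, 1086 and 2270 RPKM at 0, 1 and 2 h. That of r1 was 221, 987 and 3832 RPKM, the highest at 2 h, and that of r2 was 422, 945 and 1996 RPKM. All 29 interferon-stimulated genes differed between cultures in the libraries after LPS by the limma F test over all genes (adjusted p below 0.05), beside 74.2% of all genes. Without D4, 25 of 28 did, beside 65.8% of all genes.

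Cultures r1 and r2 were alike and apart from the others in cholesterol synthesis. The summed list had 393 RPKM in r1 and 366 in r2, against 164 to 261 RPKM in D3 to D6 and 125 in UKD. Scd2, a fatty acid desaturase, had 46.1 and 42.1 RPKM in r1 and r2, against 3.90 to 15.2 in the D cultures. Fdft1, squalene synthase, had 19.7 and 18.1 RPKM in r1 and r2, against 6.87 to 8.0 in the D cultures, so the 2 sets did not overlap.

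Other genes followed the same split. Mrc1 had 118 and 70.4 RPKM in r1 and r2, against 4.52 to 29.95 in the D cultures, and Selenop, a secreted selenium carrier, had 421 and 258 against 45.2 to 130. In the opposite direction Pdgfb, a growth factor, had 1.06 and 2.15 RPKM in r1 and r2 against 6.06 to 8.19, and Plec, a cytoskeletal linker, 9.51 and 10.5 against 26 to 40.8. Among the 114 variable genes, 14 were higher in both r1 and r2 than in the other 5 cultures at 0 h and 33 were lower in both. Of these, 11 and 22 had the same order at both 1 h and 2 h. Over all 6032 genes, 13.5% were higher and 10.6% lower in both r cultures at 0 h, so the 14 are close to the share of all genes. Of the 33 lower genes, 17 were in the group with the highest GC content. The share of all genes that kept the order after LPS was not examined.

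The r cultures (n = 2) were compared with the D cultures (n = 4) by limma over 9667 genes at 0 h. No gene passed (0% called), while 1202 genes had an unadjusted p below 0.05. The smallest p was that of Fdft1, with a log2 difference of r minus D of 1.30 ± 0.146 (SE; limma adjusted p = 0.166). Next were Pdgfb at −1.97 ± 0.242, Plec at −1.57 ± 0.207, Pdgfa at −1.88 ± 0.254 and Flrt2 at −1.08 ± 0.148, each with the same limma adjusted p. For the 20 cholesterol genes the median r minus D was 0.77, against 0.01 for all genes, and 0 of 20 passed.

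Leaving out D3 gave 147 calls, 9 higher and 138 lower in the r cultures. The 138 lower genes had a median GC content of 58.1% and the 9 higher genes 51.9%. The correlation of deviation with GC content did not follow the names: it was −0.20 in r1, −0.37 in r2 and −0.35 in D4, but 0.60 in D5 and 0.36 in D6. The part of GC content in these calls was not tested.

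Promoters of the cholesterol synthesis list were searched in the same way for TCACNCCAC, a form of the sterol regulatory element. The letters were in 0 of the 14 cholesterol promoters with an entry and in 1.04% of all promoters, which says only that this window does not hold them. For the lysosome list the E-box GTCACGTG, the core of the element bound by the lysosomal regulator TFEB, was in 3 of 21 promoters (14.3%), against 1.89% of all and 3.97% of those of genes at 5 RPKM or more. It was also in 3 of the 14 cholesterol promoters (21.4%) and in 0 of 20 of the interferon list. Ctsd, among the most abundant genes, and Glb1, lysosomal beta-galactosidase, are shown with it in capitals.

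Ctsd (chr7:142387828-142388077, minus strand): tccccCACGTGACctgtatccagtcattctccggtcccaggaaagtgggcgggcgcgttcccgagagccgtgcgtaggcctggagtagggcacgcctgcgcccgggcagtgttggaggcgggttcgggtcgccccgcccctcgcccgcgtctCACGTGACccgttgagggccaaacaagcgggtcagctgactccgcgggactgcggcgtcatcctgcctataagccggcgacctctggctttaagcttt
Glb1 (chr9:114400828-114401077, plus strand): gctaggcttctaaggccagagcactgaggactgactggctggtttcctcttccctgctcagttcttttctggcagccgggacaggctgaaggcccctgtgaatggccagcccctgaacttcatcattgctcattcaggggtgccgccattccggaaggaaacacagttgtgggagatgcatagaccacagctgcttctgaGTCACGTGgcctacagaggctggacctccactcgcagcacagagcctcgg

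Ctsd holds the E-box at 2 places, both read on the opposite strand.

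The resting levels were set beside those 2 h after LPS in the same 7 cultures by limma on the 21 DMSO libraries. Of 10214 genes, 44.5% were called, 9.27% higher and 35.2% lower at 2 h. The median change of all genes was −0.25 on the log2 scale, and with median-of-ratios scaling it was −0.04 with 1396 genes higher and 1652 lower, and the changes below are to be read relative to it. The culture names pair the times, and a fit with culture as a block called 7853 genes (76.9%), 1512 higher (14.8%) and 6341 lower (62.1%).

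Il1b, at 367, 503 and 803 RPKM (lowest, median and highest) 2 h after LPS against 0.0385, 0.173 and 1.67 at 0 h, rose by 9.26 ± 0.316 (log2, SE; adjusted p = 2.37e-15). The 2 times did not overlap. Tnf was at 1011, 1491 and 1962 RPKM at 2 h against 4.44, 11.9 and 17.6 at 0 h, a log2 rise of 7.01 ± 0.245 (adjusted p = 2.51e-15). Of the 28 inflammatory cytokine and chemokine genes tested, 23 rose and 0 fell, beside 9.27% of all genes higher, and the block gave 23 and 1.

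Acod1 was at 427, 714 and 1266 RPKM at 2 h against 1.32, 2.62 and 31.9 at 0 h, a log2 rise of 7.31 ± 0.491 (adjusted p = 1.63e-10). Cxcl10, an interferon-inducible chemokine, had 521, 1049 and 2346 RPKM against 0.846, 1.51 and 15, a rise of 8.5 ± 0.464 (adjusted p = 5.38e-12). Neither overlapped between the times. Of 29 interferon-stimulated genes, 11 rose and 0 fell, beside 9.27% and 35.2% of all genes. The block gave 18 and 1, beside 14.8% and 62.1% of all genes.

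Receptors moved in both directions. Cd14 had 306, 421 and 506 RPKM at 2 h against 29.8, 40.9 and 48.5 at 0 h, a log2 rise of 3.41 ± 0.162 (adjusted p = 5.87e-13). Tlr4 had 1.57, 3.45 and 6.24 RPKM against 4.42, 8.35 and 9.18, a change of −0.99 ± 0.269 (adjusted p = 0.0049), with overlap between the times. Adora2b had 6.59, 15.4 and 25.4 RPKM against 0.796, 0.874 and 1.41, a rise of 3.23 ± 0.266 (adjusted p = 4.47e-09).

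The prostaglandin receptor Ptger4 had 2.36, 4.27 and 6.12 RPKM at 2 h against 0.865, 1.68 and 3.34 at 0 h, a log2 rise of 0.96 ± 0.249 (adjusted p = 0.00377). Of 18 receptors for catecholamines, prostanoids, adenosine and nucleotides tested, 6 rose and 5 fell, and 6 and 10 with the block. Over all genes 9.27% rose and 35.2% fell, and 14.8% and 62.1% with the block.

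Lineage factors were split, with 8 rising and 9 falling of 22, beside 9.27% of all genes higher and 35.2% lower. With median-of-ratios scaling 8 rose and 6 fell. Tfec had 64.7, 90.9 and 111 RPKM at 2 h against 5.30, 6.49 and 11.7 at 0 h, a log2 rise of 3.57 ± 0.241 (adjusted p = 1.79e-10). The times did not overlap. Cebpa had 1.41, 4.93 and 13.9 RPKM against 11.2, 22.9 and 43.4, a change of −1.97 ± 0.486 (adjusted p = 0.00249), with overlap. Irf8 had 5.33, 6.09 and 20.1 RPKM against 11.6, 19.7 and 24.1, a change of −1.28 ± 0.235 (adjusted p = 0.000169), also with overlap.

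Spp1 had 1051, 1831 and 2056 RPKM at 2 h against 748, 938 and 1168 at 0 h, a log2 rise of 0.78 ± 0.152 (adjusted p = 0.000332), with overlap. Of the 20 most abundant genes it was the 1 that rose and 0 fell, while the block gave 2 and 12. Beside these and the lists that follow, 9.27% of all genes were higher and 35.2% lower, and 14.8% and 62.1% with the block. With the block, 12 lower of 20 is close to the share of all genes. Of 28 lysosome genes, 1 rose and 0 fell (3 and 20 with the block); of 20 cholesterol genes, 0 and 0 (3 and 12); of 26 cytoskeleton and translation genes, 0 and 0 (2 and 10). Their median changes were −0.18, −0.24 and −0.08, beside −0.25 for all genes, and 0.05, −0.03 and 0.15 with median-of-ratios scaling, which turns the sign of the first and the last. Of 32 cell cycle genes 15 fell and 0 rose, with a median of −0.53, beside 35.2% of all genes lower. With the block 31 fell, beside 62.1% of all genes, and with median-of-ratios scaling 9.

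Of the 114 variable genes, 11 rose and 4 fell at 2 h (31 and 39 with the block, 11 and 2 with median-of-ratios scaling). The shares of all genes were 9.27% and 35.2%, and 14.8% and 62.1% with the block. These genes were chosen for a wide spread between cultures at 0 h, which the fit without the block takes as its error. Their few calls in that fit are thus partly set by the choice and cannot be read against those shares. Scand1, Mrc1 and Eif2s3y changed by −0.08, −0.08 and 0.06 on the log2 scale with no call, nor with the block (limma adjusted p = 0.384, 0.501 and 0.334). Ccl5 had 93.3, 302 and 346 RPKM at 2 h against 0.260, 1.02 and 61.1 at 0 h, a rise of 6.47 ± 0.735 (adjusted p = 4.8e-07) with no overlap. Saa3 had 13, 103 and 479 RPKM against 0.229, 0.839 and 66.8, a rise of 5.60 ± 0.906 (adjusted p = 4.15e-05) with overlap, D4 holding the highest level at 0 h.

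**Figure D5:**
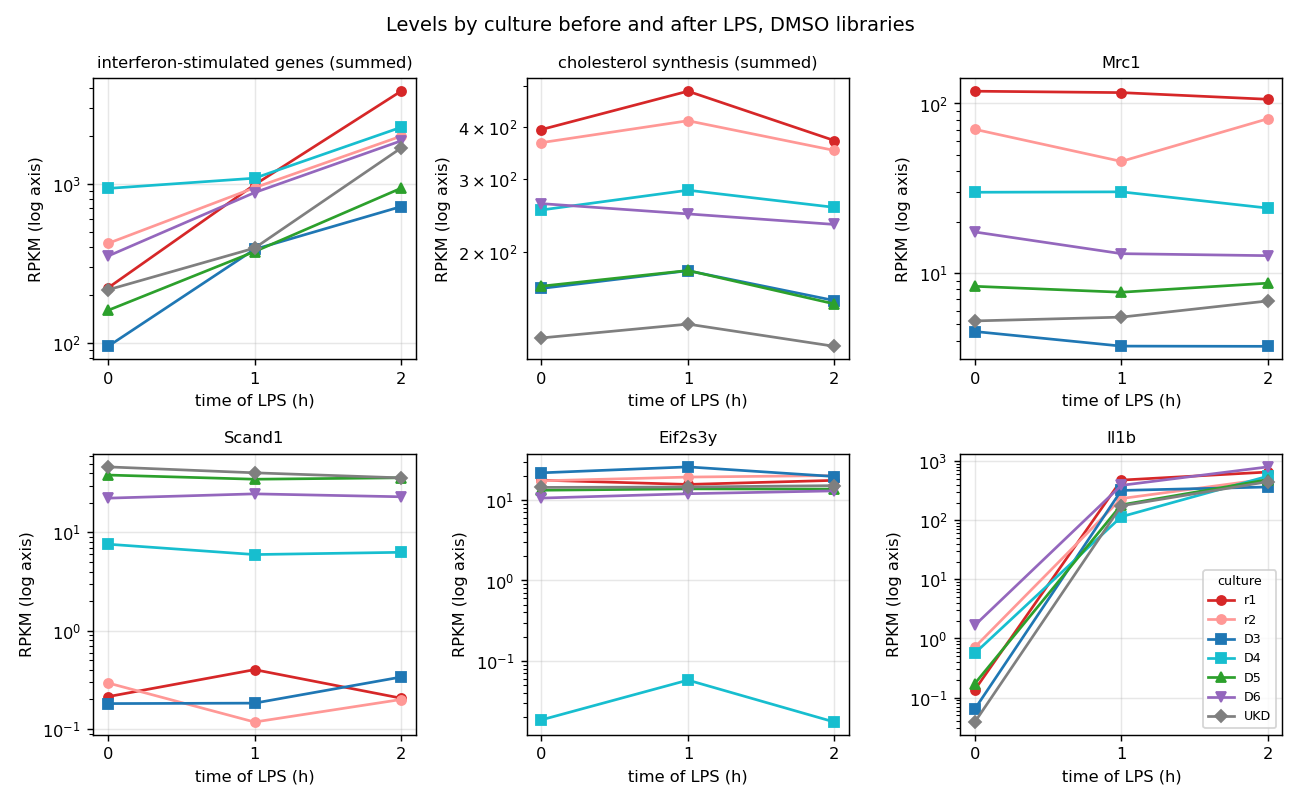
Levels in each culture at 0, 1 and 2 h of LPS, DMSO libraries, RPKM on a log axis. Upper panels show the summed interferon-stimulated list, the summed cholesterol synthesis list and Mrc1; lower panels show Scand1, Eif2s3y and Il1b, of which Il1b reaches 367 to 803 RPKM at 2 h in all 7 cultures.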

How the data were processed

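RNA was sequenced from 30 macrophage libraries, and the 7 DMSO libraries without LPS are described here, with the 14 DMSO libraries at 1 h and 2 h of LPS used for comparison. The deposited table holds RPKM values computed by the authors, 1 line per transcript, with no raw counts. FastQC, cutadapt, HISAT2, SAMtools and the mouse build mm9 are named without versions or order, per the submitters' processing notes. Which program counted the reads, on which annotation, with or without strand, and how it placed reads with several matches is not given in the sources used here.

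For each symbol the line with the highest mean over the 7 libraries was kept. Levels were analysed as log2(RPKM + 0.5), a scale that understates changes of low genes. Limma-trend (version 3.58.1 of limma in R 4.3.3) was run on genes at 1 RPKM or more in at least 3 of the libraries fitted, with Benjamini-Hochberg adjustment over all genes and a threshold of 0.05. The fits were run on simulated data with 200 changed genes. The simulated libraries were independent and had no culture effect, so they do not test the fits under the culture differences seen here. Tables were handled with pandas 2.3.3 in Python 3.11.15. The depth estimate uses the spacing of the lowest values and covers counted reads only.

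Members and gene lists were chosen with earlier results of these data known. Of 548 list symbols 545 were found; Hmgcs1, Ighm and Trac were not analysed here, nor was a 6 h time. Named genes are the 20 most abundant, the 15 most and 10 least variable among genes with a mean of 5 RPKM or more, up to 8 leading members of each list with any whose SD is above 1, all lineage factors and catecholamine, prostaglandin and adenosine receptors, the 5 smallest p of r against D, and Il1b. A few genes chosen by these rules are not reported here. Other named genes were chosen after their values were seen.

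The labels' culture names recur at each time. Deviations from the group means correlated between 0.676 and 0.940 over 21 pairs of one culture, and between −0.752 and 0.716 over 126 pairs of different cultures, so the names pair the libraries. Alternatives were other pseudocounts (0.1, 1), filters, median-of-ratios scaling, summed transcript lines, leaving out each culture, a block by culture and the name series as a covariate. Centring within 10 GC groups and leaving cultures out of the interferon count were chosen after seeing the data. Transcript GC contents come from a GENCODE mouse annotation and promoters from RefSeq, matched by accession or symbol (99.2% of 6032 genes for GC).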

Additional observations from a re-analysis of the deposited data

Results flagged for a closer look

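Among 251 genes and summed gene lists whose 7 resting levels were examined, 18 had 1 culture whose gap to the nearest other exceeded the 95% limit of Dixon's test (0.568 of the range for 7 samples). Chance alone flags about 1 in 20 groups taken without regard to their values, and genes of one list are not independent. The genes examined include those named for their spread over these same 7 levels and others chosen after their values were seen. The 18 of 251 therefore cannot be read against that rate. D4 was the culture apart in 11 of the 18, high in 6 and low in 5.

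High in D4 were Saa3 (66.8 RPKM, others 0.229 to 2.00), Ccl5 (61.1, others 0.260 to 3.03), Gapdh (37.4, others 11.1 to 18.2), Xist (19.8, others at most 0.003), Ifi44 (6.14, others 0.0302 to 0.649) and Adora2a (0.139, others 0.0188 to 0.0326). Low in D4 were Cd68 (392 RPKM, others 599 to 777) and the Y-linked Ddx3y (0.0356, others 4.94 to 9.12), Eif2s3y (0.0185, others 10.6 to 21.8), Uty (0.00629, others 1.77 to 3.03) and Kdm5d (0.00603, others 1.93 to 3.34).

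High in D6 were Kdr (10.2 RPKM, others 3.08 to 5.22), Runx1 (5.76, others 2.85 to 3.87), Kit (3.96, others 0.593 to 1.49) and Nos2 (0.282, others 0.00533 to 0.0692). D3 was high for Csf2rb (57.8 RPKM, others 16.4 to 26.4) and low for Irf8 (11.6, others 18.6 to 24.1). UKD was high for Arg1 (0.193 RPKM, others 0.0151 to 0.0670).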

How the results depend on the processing

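The count of genes at 1 RPKM or more in all 7 cultures (8855) was 8875 to 8947 when 1 culture was left out and 4895 at 5 RPKM. The share of the top 20 was 19.0% to 19.6% without 1 culture. The variable genes (114) were 95 to 137 without 1 culture, 84 after GC centring and 190 at a mean of 1 RPKM. The interferon-stimulated genes with an SD above 1 (18) were 8 to 21 without 1 culture, the 8 without D4. The culture differences after LPS (7319) were 6423 to 7174 without 1 culture and 5058 without the 3 cultures whose 1 h library was shallow. The r against D calls (0) were 0 to 147, the 147 without D3. The LPS calls (4544) were 3792 to 4635 without 1 culture, 2702 with a filter of 5 RPKM, where fewer genes were tested, and 7853 with the replicate block by culture.

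Of 591 alternatives over 42 gene results, 574 stayed on the same side of the threshold with the same direction, 12 lost the call, 5 gained it and 0 changed sign. The 5 gains were the genes of r against D without D3. The block, run for 28 of the LPS gene results, left those 28 on the same side with the same direction. Calls were lost by Slc2a1 (4 alternatives), by Mcm6, Fnta and Ints11 under median-of-ratios scaling, and by Lyz1, Itprid2 and Saa3 with cultures left out. Values near the floor of 1 read are upper limits.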
